A study of Caenorhabditis elegans with 3 samples.

Results

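Pumilio-family (PUF) proteins bind short sequence elements in the untranslated tails of messenger RNAs and mostly repress those messages, in part by recruiting deadenylases that shorten the poly(A) tail. In the C. elegans germ line they are known for keeping stem cells dividing, for setting the switch from sperm to oocytes and for holding maternal messages silent until the embryo uses them. The family members examined here were the 10 genes fbf-1, fbf-2, puf-3, puf-5, puf-6, puf-7, puf-8, puf-9, puf-11 and puf-12. They were chosen by symbol, with earlier results of these data known. Of these, 7 had a feature of their own on the array with a value on all 3 arrays, among 15112 single genes measured in the same way. No listed feature carried fbf-1, and puf-3 and puf-11 appeared only together on 1 feature, so no value was assigned to these 3 genes.

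The data were log2 ratios from 3 two-colour arrays of Caenorhabditis elegans. Each array set RNA of adult hermaphrodites carrying embryos, labelled TP10, against a wild-type mixed reference. The TP10 RNAs were numbered as preparations 1 to 3 and were treated as replicates of a single group, and the labels give no genotype or age for TP10 and no composition for the reference. Separate cultures are not stated, so the p-values reflect how far these preparations differ, possibly for technical reasons, and the small number of arrays limits the precision. Arrays 1, 2 and 3 held 19864, 19855 and 19854 values, and the SD of the centred ratios was 0.889, 0.848 and 0.674 log2 units, so array 3 was the narrowest. The array titles also end in what read as different dates. The labels do not say what they date, and they cannot be told apart from preparation. No dye is named in the labels. The ratio was read as TP10 over reference from the order of the descriptions, and if it were inverted every "higher" below would read "lower". All values are relative to the median gene or feature of each array, and a ratio does not give the level of one gene against another.

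Of the 7 measured PUF genes, 5 were higher in TP10 than in the reference, none was lower and 2 did not pass the test (limma, Benjamini-Hochberg adjusted p under 0.05 over all genes and features). Across all single genes 22.2% were called higher and 23.7% lower. The median of the 7 mean log2 ratios was 1.50, against -0.01 over all single genes. By at least 2-fold, 4 of the 7 were higher, against 8.52% of single genes. The 3 genes with the highest ratios, puf-6, puf-7 and puf-5, are known for their roles in oogenesis. The stem cell gene fbf-2 came next, then puf-8. The other two, puf-9 and puf-12, lay near the middle of all genes, at ranks 7705 and 8187 of 15112.

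**Figure D1:**
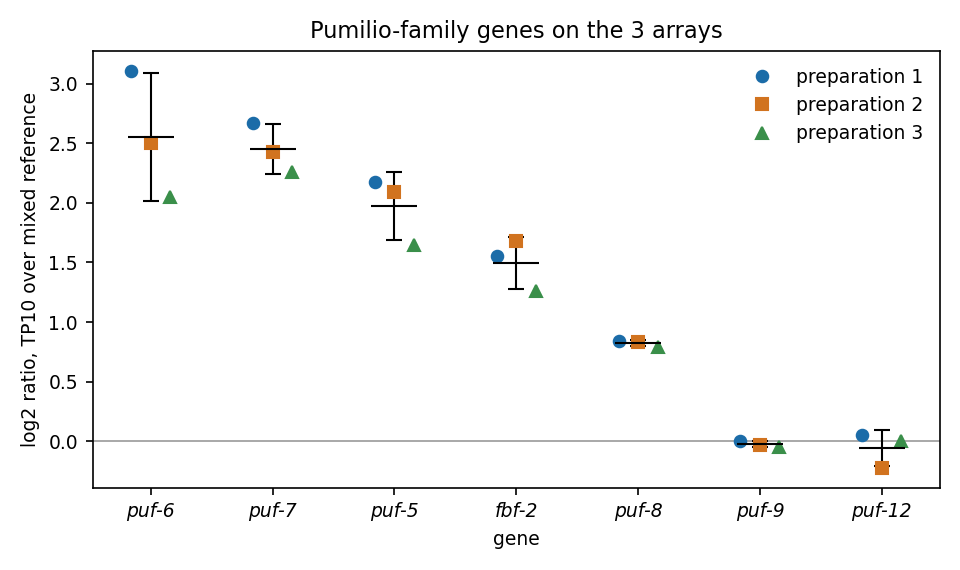
Log2 ratio of TP10 over the mixed reference for the 7 measured Pumilio-family genes, with a symbol for each preparation and a horizontal bar with whiskers for the mean ± SD (n = 3 arrays). The genes run from puf-6 at a mean of 2.55 down to puf-12 at -0.05, and array 3 gives the lowest value of puf-6, puf-7, puf-5, fbf-2 and puf-8.

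Among the 7 measured members, the oogenesis genes puf-6, puf-7 and puf-5 had the highest mean ratios. PUF-5, PUF-6 and PUF-7 act in developing oocytes, where PUF-5 with its relatives represses the Notch receptor message glp-1. The log2 ratio of puf-6 was 3.11, 2.50 and 2.04 on arrays 1, 2 and 3. All 3 values were far above 0, and array 1 was the highest by a wide step. The mean was 2.55 ± 0.53 (SD, n = 3), or 5.86-fold, with an adjusted p of 9.36e-06 (limma). puf-6 ranked 26 of the 15112 single genes from the top.

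The ratio of puf-7 was 2.67, 2.42 and 2.26, closer together than that of puf-6. Its mean was 2.45 ± 0.21 (SD, n = 3), or 5.47-fold, with an adjusted p of 2.82e-06 (limma) and rank 29. puf-6 and puf-7 are close relatives, and spots for such genes can bind RNA of both. Whether these features cross-hybridise was not tested. The ratio of puf-5 was 2.18, 2.09 and 1.65, with array 3 below the others. Its mean was 1.97 ± 0.29 (SD, n = 3), or 3.93-fold, with an adjusted p of 1.11e-05 (limma) and rank 93.

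FBF-2 and its near twin FBF-1 maintain the germline stem cells at the distal end of the gonad and repress messages of differentiation such as gld-1. The log2 ratio of fbf-2 was 1.55, 1.68 and 1.26 on arrays 1, 2 and 3. Array 2 was the highest, unlike for the oogenesis genes. The mean was 1.50 ± 0.22 (SD, n = 3), or 2.82-fold, with an adjusted p of 3.68e-05 (limma). fbf-2 ranked 385 of 15112. Whether its feature also binds RNA of fbf-1, which had no listed feature, was not tested.

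PUF-8 acts in the germ line, where it supports mitotic proliferation and keeps primary spermatocytes from returning to mitosis. The ratio of puf-8 was 0.84, 0.84 and 0.80, nearly the same value on every array. The mean was 0.82 ± 0.03 (SD, n = 3), or 1.77-fold, with an adjusted p of 7.90e-04 (limma). Only 0.821% of single genes had a smaller SD between arrays than puf-8. That narrow SD depended on the scale of the arrays: with all arrays scaled to one spread the values were 0.76, 0.79 and 0.94.

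PUF-9 is known from somatic tissues, where it acts on the heterochronic message hbl-1. The log2 ratio of puf-9 was 0.0043, -0.029 and -0.045. The values straddled 0, with a mean of -0.02 ± 0.03 (SD, n = 3) and an adjusted p of 0.912 (limma). The 95% confidence interval of the mean ran from -0.33 to 0.28, so it takes in changes of up to about that size in either direction. puf-9 is the X-linked member. On X 10.2% of 2256 genes were higher, against 25.8% of 2673 genes on chromosome II, where fbf-2, puf-5, puf-6, puf-8 and puf-12 lie, and 23.7% of 2258 on chromosome IV, where puf-7 lies.

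PUF-12 is a diverged member of the family. The log2 ratio of puf-12 was 0.06, -0.22 and 0.0043, with array 2 alone below 0. The mean was -0.05 ± 0.15 (SD, n = 3), with an adjusted p of 0.796 (limma) and an interval from -0.37 to 0.26. The direction of puf-12 changed without preparation 2, to a mean of 0.030, and it did not pass the test there either.

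**Figure D2:**
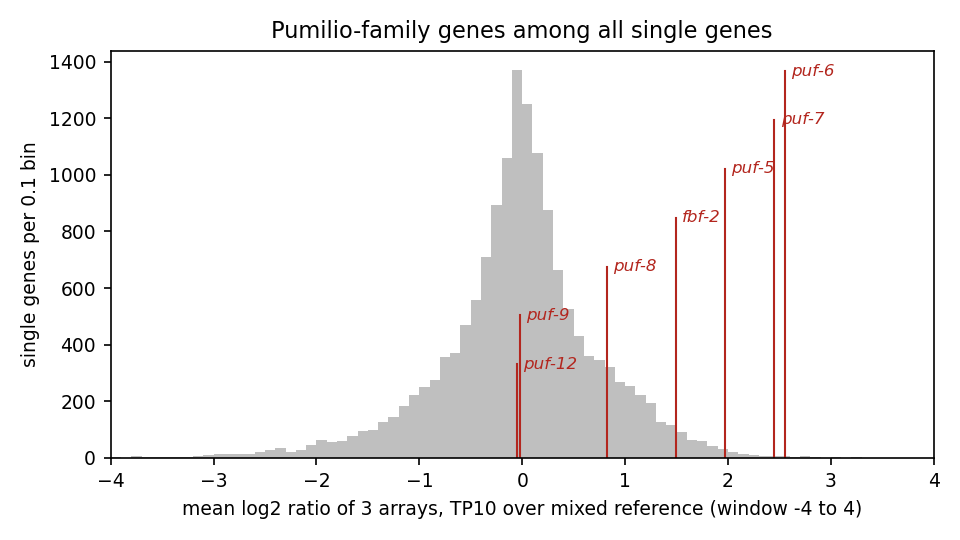
Histogram of the mean log2 ratio of all 15112 single genes in bins of 0.1, cut at -4 and 4, with a labelled line for each of the 7 Pumilio-family genes (line height carries no value). puf-6, puf-7 and puf-5 stand in the upper tail at 2.55, 2.45 and 1.97, and puf-9 and puf-12 stand at the peak.

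Neighbours in the order of the members were compared by their ranges over the arrays and array by array. The ranges over the arrays did not overlap between puf-7 and puf-5, between fbf-2 and puf-8 or between puf-8 and puf-9. They overlapped between puf-6 and puf-7, between puf-5 and fbf-2 and between puf-9 and puf-12. On the same array, the upper gene exceeded the next in 3 of 3 cases at every step but puf-6 over puf-7 (2 of 3) and puf-9 over puf-12 (1 of 3). puf-5 thus exceeded fbf-2 on every array, by 0.63, 0.42 and 0.39 log2 units, although their ranges overlapped. With the arrays scaled to one spread these ranges did not overlap, at 1.96, 1.97 and 1.95 for puf-5 and 1.39, 1.58 and 1.49 for fbf-2.

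Differences between related members were taken array by array, for the 4 pairs with both genes measured. puf-7 exceeded puf-5 by 0.49, 0.33 and 0.61 log2 units, and puf-6 exceeded puf-5 by 0.93, 0.41 and 0.40. puf-8 exceeded puf-9 by 0.84, 0.87 and 0.84. Each of these 3 differences had p = 0.25 in an exact two-sided sign-flip permutation test, the smallest that 3 arrays allow, and an adjusted p of 0.333 over the 4 pairs, so no pair could pass. puf-6 minus puf-7 was 0.44, 0.08 and -0.21, with a mean of 0.10 ± 0.32 (SD, n = 3) and an exact permutation p of 0.75. That difference changed sign without preparation 1, to -0.067.

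Part of the spread of the highest members went with the width of the arrays. The SD between arrays of puf-5 was 0.29 with median centring and 0.011 when the arrays were scaled to one spread, and for puf-6 it went from 0.53 to 0.24. The SD of puf-7 stayed near 0.20, while that of puf-8 went the other way, from 0.026 to 0.099. The mean of puf-6 was 2.52 after scaling and that of puf-5 1.96.

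**Figure D3:**
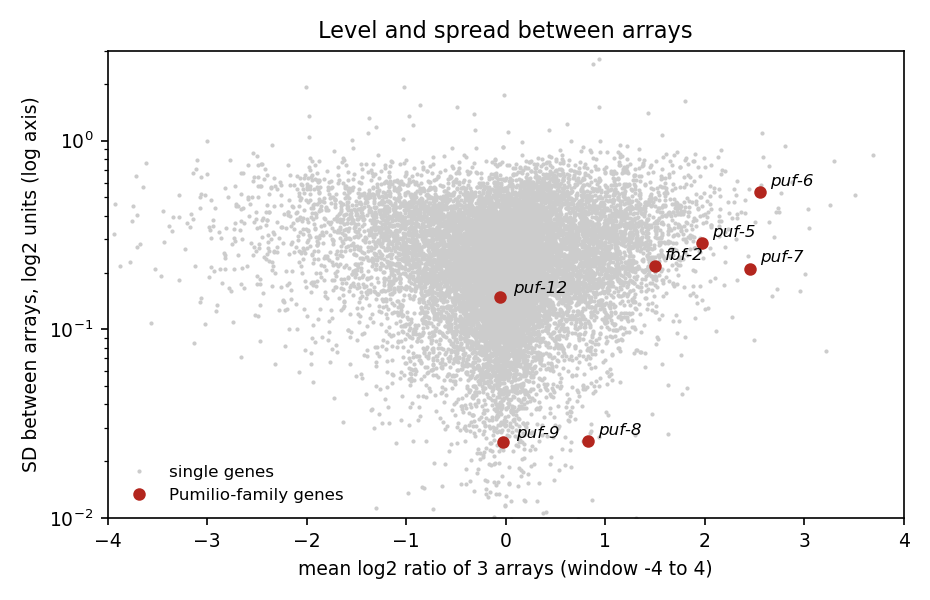
Mean log2 ratio (window -4 to 4) against the SD between the 3 arrays (log axis) for single genes in grey, with the 7 Pumilio-family genes in red. puf-8 and puf-9 share an SD near 0.025 at means of 0.82 and -0.02, while puf-6 has an SD of 0.53 at a mean of 2.55.

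For each member the most similar profiles over the 3 arrays were sought by Euclidean distance among 9239 other genes with a symbol. The closest to puf-6 were the RNA helicase gene cgh-1, at a distance of 0.26 log2 units, and rme-2, the yolk receptor gene of oocytes, at 0.30. rme-2 was also the closest to puf-7, at 0.28, followed by the kinesin gene klp-7 at 0.34. puf-5 lay nearest to nasp-2 at 0.089 and to mex-5, a maternal zinc finger gene of the embryo, at 0.15. fbf-2 lay nearest to nol-58 at 0.047 and to fzy-1, an activator of the anaphase-promoting complex, at 0.054. Within 0.5 log2 units lay 6 genes for puf-6, 11 for puf-7 and 75 for puf-5. For fbf-2 there were 289, for puf-8 773, for puf-9 2539 and for puf-12 2213. These counts follow how many genes have ratios of that size, so they mostly restate the rank of each member. The nearest to puf-8 were set-24 and catp-6, to puf-9 bgnt-1.4 and his-65, and to puf-12 prmt-4 and wdr-5.2, all within 0.064. The 3 arrays hold a single condition, so the distance compares only the ratios on those arrays and describes no course over time or tissue.

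Genes listed as PUF partners, or as RNA regulators linked to such partners, were higher with 1 exception. Whether each product binds a PUF protein was not tested. This list and those below were drawn up with earlier results of these data known, so their counts only describe the listed genes. Of the 17 genes on this list, all measured, 16 were called higher and none was called lower. Among all single genes the shares were 22.2% higher and 23.7% lower (45.9% in either direction). The list's median ratio was 1.45 on the log2 scale. cgh-1 had the highest mean, at 2.57 ± 0.55 (SD, n = 3), from 3.21, 2.32 and 2.19. car-1, whose product joins CGH-1 in ribonucleoprotein granules, had 2.51, 1.78 and 1.55, a mean of 1.95 ± 0.50. rnp-8, which encodes a partner of the poly(A) polymerase GLD-2, had 2.31, 2.02 and 1.46, a mean of 1.93 ± 0.43. The 1 exception was cpb-2, of the CPEB family of RNA-binding proteins, at 0.45, -0.40 and -0.22. Its mean was -0.06 ± 0.45, and an adjusted p of 0.834 (limma) left it not past the threshold.

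Genes of deadenylases and of other subunits of their complexes were higher as far as they were measured. Of 13 listed names 9 were measured and all 9 were higher, against 22.2% of single genes. Their means had a median of 1.13 on the log2 scale and lay between 0.73 and 1.54. let-711, the scaffold of the CCR4-NOT complex, had 1.86, 1.48 and 1.26, a mean of 1.54 ± 0.30 (SD, n = 3). The catalytic subunit gene ccf-1 stood at 1.30 ± 0.10 and the poly(A)-specific ribonuclease gene parn-1 at 1.25 ± 0.35. ntl-4 lost its call without preparation 2 (limma, adjusted p = 0.0562).

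Messages reported as targets of PUF proteins were also mostly higher. Of 18 listed 14 were measured, that is with a value on all 3 arrays. The listed target fem-3 had values on arrays 1 and 3 only. Without preparation 2 it was called higher, with a mean of 0.88 (limma, adjusted p = 0.00345). Of the 14 measured targets 11 were higher, against 22.2% of single genes, none was lower and the other 3 did not pass the test. The median ratio was 0.79 on the log2 scale. gld-1, an FBF target that encodes a translational repressor needed for oogenesis, had 2.34, 2.63 and 1.86, a mean of 2.28 ± 0.39 (SD, n = 3), or 4.85-fold. gld-3, an FBF target and partner, stood at 1.35 ± 0.28 and glp-1, the PUF-5 target, at 1.32 ± 0.39. The pairing of fbf-2 at 1.50 and gld-1 at 2.28 compares RNA ratios only, and protein was not measured. pal-1, the PUF-8 target of posterior fate, was higher at 0.92 ± 0.08.

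The 3 targets not past the threshold were hbl-1, syp-3 and fog-3. hbl-1, the PUF-9 target, had 0.02, 0.47 and 0.99, a different order of arrays from every PUF gene called higher, with a mean of 0.49 ± 0.49 (SD, n = 3). Its adjusted p was 0.0563 (limma), and 0.0110 without preparation 1, where its mean was 0.73. syp-3, of the synaptonemal complex, had a mean of 0.39 ± 0.26 (adjusted p = 0.0651, limma). fog-3, which specifies sperm fate, was below 0 on all 3 arrays at -0.53, -0.24 and -0.32, with an adjusted p of 0.0622 (limma).

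Among genes of the sperm to oocyte switch, 11 of 18 listed were measured (median log2 ratio 0.94). Of these 8 were higher, against 22.2% of single genes, and none was lower. After gld-1 the highest were mog-4, whose helicase promotes the switch to oocytes, at 1.72 ± 0.45 and mog-3 at 1.63 ± 0.53 (SD, n = 3). Beside fog-3, those not past the threshold were fem-1, a gene of male fate, at 0.36 ± 0.16 and tra-3, a protease gene of female fate, at -0.06 ± 0.20. Other genes of male or sperm fate were called higher: fem-2 at 0.94 ± 0.13 and fog-2 at 0.75 ± 0.26. fem-3 is on this list too and was left out for want of a value on array 2. mog-1 lost its call without preparation 2 (limma, adjusted p = 0.0685).

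Of 8 genes of germline stem cell signalling 7 were measured. The test called 6 of them higher, against 22.2% of single genes, and none lower, and the median log2 ratio was 1.02. glp-1 led. The Notch target genes sygl-1 and lst-1, whose products are partners of FBF, followed at 1.25 ± 0.43 and 1.12 ± 0.26 (SD, n = 3). epn-1 was not past the threshold at 0.10 ± 0.06 (limma, adjusted p = 0.617). The call of apx-1, a Notch ligand gene, rested on array 1. Its ratio was 1.81, 0.46 and 0.37, and without preparation 1 the mean fell from 0.88 to 0.41 with an adjusted p of 0.0564 (limma). Among genes with a value on all 3 arrays the lists share sygl-1, lst-1, gld-1, gld-3, glp-1, nos-3 and fog-3, and so are not separate evidence. The marker lists below hold oma-1 and oma-2 of the partners and him-3 of the targets.

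**Figure D4:**
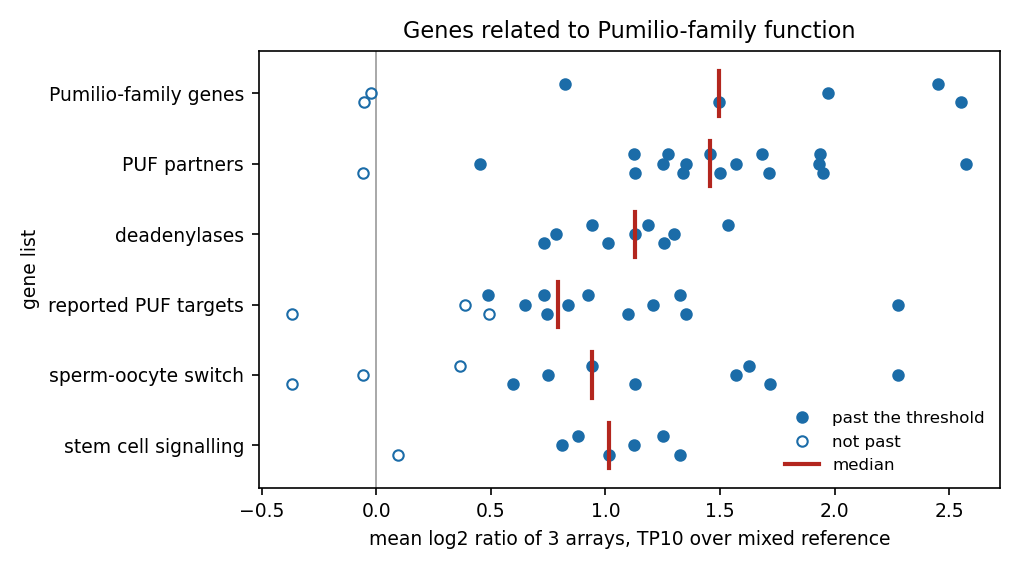
Mean log2 ratio over the 3 arrays for each measured gene of the Pumilio family and of 5 related lists, filled where past the threshold (limma, adjusted p under 0.05) and open where not, with the median of each list as a red line. The medians run from 0.79 for reported targets to 1.50 for the Pumilio family, and a gene may stand in more than one list.

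Markers of the cell types that an adult with embryos can hold differed in direction. Germ line and oocyte markers were mostly higher, like the PUF genes, while the other lists were mixed, mostly lower or mostly not past the threshold. The shares over all single genes, beside which each count stands, were 22.2% higher and 23.7% lower. All 11 measured germ line markers were higher (median log2 ratio 1.96), from 1.10 for him-3 to 2.74 for glh-2. Of 12 oocyte markers 10 were higher and none was lower (median 1.53), from -0.23 for egg-1 to 2.57 for cbd-1. Of 11 sperm markers 6 were lower and 2 were higher (median -0.71), from -2.18 for msp-51 to 0.87 for spe-41. Of 7 markers of early zygotic transcription 1 was higher and 2 lower, from med-1 at -0.87 to end-3 at 0.58, and of 6 somatic gonad markers 2 were higher and 2 lower, from ceh-18 at -1.19 to inx-9 at 0.58. Of 11 neuron markers 8 were lower and none higher, from unc-25 at -2.47 to snb-1 at 0.15. Body muscle had 1 of 9 higher and none lower, from unc-89 at -0.28 to mup-2 at 0.81. Intestine had 3 of 9 higher and 5 lower, from ftn-1 at -2.20 to pho-1 at 0.84, and hypodermis and seam 1 of 10 higher and 5 lower, from rol-6 at -3.75 to nhr-23 at 1.06. The part of these markers in the PUF ratios was not tested, and in such bulk RNA more cells of a type and more RNA per cell cannot be told apart.

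The calls depended on the variance that limma shares between genes. In an unmoderated one-sample test with the same arrays, 0 of the 7 PUF genes passed after adjustment, with adjusted p-values of 0.0854 to 0.0973 for the 5 called higher, while 5 of the 7 had an unadjusted p under 0.05. Without any 1 preparation the count of PUF genes called higher was 5.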

How the data were processed

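The deposited values were the authors' log2 ratios of the 2 array channels for 20000 features. That the log base is 2 follows from the values, because raising 2 to them gave whole thousandths, within 0.01 of a thousandth, for at least 99.98% on each array. Background correction, spot filters, normalization and dyes are not given in the sources used here, and spot intensities were not used here. The platform annotation gave 15655 features 1 gene each, and symbols were updated through RefSeq gene identifiers (15569 matched, assembly WBcel235). A value on all 3 arrays was required (19748 features), features of a gene were averaged, and each array was centred on its median, which left 19300 genes and unnamed features. The test of each mean against 0 used limma 3.58.1 (R 4.3.3; intercept only, two-sided, Benjamini-Hochberg over all 19300), which called 8476. The reference's own spread and any dye bias are not in the error. No sequence tables were used here, so the planned protein and promoter comparison was not made. Members and lists were chosen with earlier results of these data known. Every measured member was named, with the 3 largest called changes and those not past the threshold (if at most 4) of each related list, the highest and lowest of each marker list, and the 2 nearest profiles per member. Genes whose call changed without a preparation, and pal-1, fem-2, fem-3 and fog-2, were named after their values were seen.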

Additional observations from a re-analysis of the deposited data

How the results depend on the processing

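Over 13 alternatives (values as deposited, centring on the mean, quantile normalization, scaling to one spread, values on at least 2 arrays, removal of the tenth of genes with the highest SD, features kept apart, robust eBayes, array weights, an unmoderated test and each preparation left out), fbf-2, puf-5, puf-7 and puf-8 stayed higher and past the threshold in 12 each. The exception was the unmoderated one-sample test, which called 0 PUF genes, 1 gene of all, and 0 members of each of the 5 related lists. puf-6 passed in 11 of 12, since the SD filter removed it and left 4 of 6 measured members called. The count of all genes called was otherwise 6754 to 9193. puf-9 passed in none. puf-12 passed in none and changed sign without preparation 2, at 0.030 (range -0.11 to 0.030 over the preparations left out). puf-6 minus puf-7 was -0.067 to 0.26 over the preparations left out and -0.067 without preparation 1. Without 1 preparation the mean ratio was 2.27 to 2.81 for puf-6, 2.34 to 2.55 for puf-7, 1.87 to 2.14 for puf-5, 1.40 to 1.62 for fbf-2 and 0.82 to 0.84 for puf-8. No paired analysis was possible because there is a single group of preparations. Signal over background was not used here, so which ratios rest on dim spots is not known.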

Other observations

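The array also carried a feature for puf-4, which RefSeq lists as a pseudogene of the family and which was named after its values were seen. Its log2 ratio was 0.86, -0.34 and 0.29 on arrays 1, 2 and 3, so the sign differed between arrays. The mean was 0.27 ± 0.60 (SD, n = 3) with an adjusted p of 0.330 (limma). Without preparation 2 it was 0.58 with an adjusted p of 0.0468 (limma). The spread of puf-4 exceeded that of every measured family member, whose highest SD was 0.53 for puf-6.

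The dynein light chain gene dlc-1, whose product is a partner of FBF-2, had the smallest ratio among the genes of the partner list called higher, at 0.57, 0.53 and 0.26. Its mean was 0.45 ± 0.17 (SD, n = 3), and its call ended without preparation 1 (limma, adjusted p = 0.0772) or preparation 2 (adjusted p = 0.147). The kinase gene egl-4, a reported FBF target, stood at 0.49 ± 0.19 and its call ended without preparation 2 (limma, adjusted p = 0.184).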
